A study of Mus musculus with 36 samples.

Results

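The genes described are 10 adipogenic regulators and adipocyte markers, chosen by name among the 55487 genes of the count table: the transcription factors Cebpa, Cebpb, Cebpd and Pparg, and the markers Fabp4, Lpl, Car3, Hp, Plin2 and Cfd. Their RNA was measured in mouse embryonic fibroblasts (MEFs), primary connective tissue cells grown from embryos freed of head and organs, after 5 h with vehicle or with 1 µM dexamethasone (Dex), a synthetic ligand of the glucocorticoid receptor (GR). The question was how far each GR variant still carried the response of these genes to Dex. The series held 36 libraries of 5 genotypes, sequenced in 2 runs, and per the study each culture came from a different mouse.

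GRwt/wt cells carry the normal receptor. GRD/D cells carry an alanine-to-threonine substitution at the dimer interface of the DNA-binding domain, GRL/L cells an isoleucine-to-alanine substitution in the ligand-binding domain made by CRISPR/Cas9, and GRD+L/D+L cells both changes in the same protein. GRko/ko cells lack a functional receptor. All cultures were homozygous and were grown from the minced remainder of the embryo, so that each can hold several cell types. By the labels every sample is FVB/NJ, while the methods of the study describe the knockout line as 129. Run 1 held 24 libraries, 3 per treatment of GRD/D, GRD+L/D+L, GRko/ko and GRwt/wt. Run 2 held 12 libraries, 3 per treatment of GRL/L and of a second set of GRwt/wt cultures. GRL/L was therefore compared only with the wild type of run 2 and the other mutants only with the wild type of run 1, and run and set of wild-type cultures cannot be told apart. Xist and Y-linked transcripts marked the run 1 wild-type and GRD/D libraries as female and all other libraries as male, so sex moves with the run in GRwt/wt and with genotype within run 1. The 3 libraries of every group were thus of the same sex, and edgeR's common biological coefficient of variation was 0.0564. Whether replicates came from separate embryos could not be checked here, and the p-values rest on the spread between libraries. If they did not, genotype and embryo cannot be told apart.

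Adipocytes form through a cascade of transcription factors. C/EBPβ and C/EBPδ, encoded by Cebpb and Cebpd, act early and switch on Cebpa and Pparg, whose products maintain each other and drive the genes of the fat cell. Glucocorticoids are a standard part of the hormone mixture that turns cultured fibroblasts into adipocytes, and Cebpd is a textbook glucocorticoid target in that setting. The markers belong to the later program: Fabp4 carries fatty acids in the cytosol, Lpl releases them from circulating triglyceride, Car3 is a carbonic anhydrase abundant in fat and muscle, Hp encodes the haemoglobin-binding protein haptoglobin, Plin2 coats lipid droplets in many cell types, and Cfd encodes the secreted protease adipsin.

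Total counts ranged from 15280166 to 28662608 per library, with run 2 deeper than run 1 throughout. Levels are given as counts scaled to library size (CPM), and a gene passed a comparison at an adjusted p of at most 0.05 in edgeR's quasi-likelihood test, corrected over 15489 genes. Nr3c1, the GR gene itself, lay between 15.9 and 20.4 CPM in GRko/ko and at 47.9 CPM or more in every other library. Tsc22d3, an established GR target, rose with Dex from a mean of 26.1 to 93.1 CPM in the wild type of run 1 and from 34.0 to 402.6 CPM in that of run 2, and stood at 26.0 and 26.2 CPM in GRko/ko. The summed level of 10 fibroblast markers was between 31800 and 51200 CPM in every group. The sum of 20 macrophage markers differed far more, from 44.9 CPM in GRD+L/D+L to 4630 CPM in GRko/ko. Xist ranged from 1.03 to 14.1 CPM in GRko/ko with Dex and from 1.39 to 1.82 CPM with vehicle. Y-linked transcripts ranged from 0.236 to 2.07 CPM in the run 1 wild type with Dex and from 0.0649 to 0.324 CPM with vehicle. The source of these reads was not tested. One library stood apart from its replicates in its marker sums: vehicle replicate 6 of the run 2 wild type had a sum of 49.1 CPM over 6 epithelial markers and 3.38 CPM over 7 neutrophil markers, where the other two vehicle libraries of that wild type had 4.09 and 4.7 CPM and 0.282 and 0.219 CPM. Without it, the same 7 genes passed for Dex in the run 2 wild type, with Cebpb at 0.82 and Cebpd at 1.80 on the log2 scale, and the calls among the 10 genes that moved are given below both ways. In such bulk samples, more cells of a type and more RNA per cell cannot be told apart.

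Cebpa and Cebpb rose with Dex in the wild type of both runs, and the sequences just upstream of these single-exon genes are shown because both genes moved there. Cebpa lies on chromosome 7 at 35119293 to 35121928 (GRCm38, plus strand) and Cebpb on chromosome 2 at 167688915 to 167690418 (plus strand). The windows hold the 250 bases before the start, from RefSeq on GRCm38.p6, which had an entry for 5 of the 10 genes. Capitals mark the short motifs found in them.
Cebpa, chr7:35119043-35119292: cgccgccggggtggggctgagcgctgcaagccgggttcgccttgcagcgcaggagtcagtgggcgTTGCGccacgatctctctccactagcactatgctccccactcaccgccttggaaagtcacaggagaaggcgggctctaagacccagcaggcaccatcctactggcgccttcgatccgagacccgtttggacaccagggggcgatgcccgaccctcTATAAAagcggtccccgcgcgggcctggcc
Cebpb, chr2:167688665-167688914: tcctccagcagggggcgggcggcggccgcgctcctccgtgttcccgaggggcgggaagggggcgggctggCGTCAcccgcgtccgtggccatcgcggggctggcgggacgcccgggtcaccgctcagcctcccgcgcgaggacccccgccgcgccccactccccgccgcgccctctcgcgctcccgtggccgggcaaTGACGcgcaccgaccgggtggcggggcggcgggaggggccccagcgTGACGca

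A first search used 5 motifs on both strands: the consensus GR element, made of 2 inverted half-sites AGAACA with 3 bases between them, its core ACANNNTGT and the half-site AGAACA, both of which lie inside it, the C/EBP palindrome TTGCGCAA and the CCAAT box. None had a match in either window. For comparison, 32817 such upstream windows were searched, leaving out a chromosome that holds none of the genes described here. Of these windows 0.00914% held the GR element, 5.84% its core, 16.1% its half-site, 0.165% the palindrome and 33.8% CCAAT. Another 4 motifs were then added after these sequences had been read, so their matches are descriptions of sequences already seen: TTGCG, the first letters of the C/EBP palindrome, TGACGTCA, the cAMP response element, TGACG, which lies inside it, and TATAAA. Cebpa held TTGCG starting 185 bases and TATAAA starting 30 bases before its start. Cebpb held TGACG or its complement CGTCA at 180, 53 and 7 bases before its start. TTGCG was present in 14.5% of the same 32817 windows, TGACG in 17.7%, TGACGTCA in 1.55% and TATAAA in 12.4%. A match is a description of letters, and its absence from 250 bases says nothing about elements elsewhere.

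In the wild type of run 1, 5 of the 10 genes rose with Dex and none fell, where 13.9% of all genes tested passed in either direction. They were Cebpa, Cebpb, Cebpd, Fabp4 and Plin2, while Car3 and Cfd were too low to estimate. In run 2, where 31.6% of genes passed, 5 rose (Cebpa, Cebpb, Cebpd, Fabp4 and Hp) and 2 fell (Lpl and Car3). The median log2 change of the 4 factors was 0.49 in run 1 and 0.53 in run 2, beside 0.00 and -0.01 over all genes tested. With both runs fitted together, 7 of 10 passed, 5 up and 2 down, against 33.6% of all genes. The 10 genes, and the 4 lists used below, were chosen with earlier results of these data known. Their counts are therefore descriptions beside these shares and not a test of the set.

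Cebpa, which holds adipocytes in the differentiated state, was at 8.5, 9.73 and 7.98 CPM with vehicle in the wild type of run 1 and at 14.2, 14.8 and 13.5 CPM with Dex. The groups did not overlap, and the log2 change was 0.70 (SE 0.109, edgeR adjusted p = 6.35e-06). In run 2 the wild type had 24.6, 23.7 and 21.9 CPM with vehicle and 32.5, 34.4 and 28.95 CPM with Dex, a log2 change of 0.45 (SE 0.0749, edgeR adjusted p = 8.835e-06). All Dex libraries were again above all vehicle libraries. No mutant passed for Cebpa. Its log2 change was -0.11 (SE 0.0959) in GRD/D, -0.03 (SE 0.123) in GRD+L/D+L, 0.06 (SE 0.0793) in GRko/ko and -0.02 (SE 0.0797) in GRL/L. In GRL/L the vehicle libraries spanned 23.9 to 27.0 CPM and the Dex libraries 21.4 to 27.5 CPM, one range inside the other.

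The difference from the wild type was tested directly. Cebpa was the only one of the 10 genes whose Dex change tested as smaller than that of the same-run wild type in all 4 mutants. The difference was -0.81 in GRD/D (SE 0.143, edgeR adjusted p = 0.0002319), -0.73 in GRD+L/D+L (adjusted p = 0.004656), -0.64 in GRko/ko (adjusted p = 0.0009149) and -0.47 in GRL/L (adjusted p = 0.0109). For GRL/L it was the only gene of the 10 that passed, where 1.85% of all genes did, and without the first Dex replicate of GRL/L the value was -0.36 with an adjusted p of 0.05813 in edgeR.

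Cebpb, an early factor of the cascade, was at 85.3, 81.5 and 73.8 CPM with vehicle and 108.1, 123.0 and 117.2 CPM with Dex in the wild type of run 1. Its groups were separate, with a log2 change of 0.53 (SE 0.105, edgeR adjusted p = 0.0002601). In run 2 the levels were lower, at 22.1, 24.9 and 34.5 CPM with vehicle and 46.4, 39.8 and 38.3 CPM with Dex, and the change was 0.61 (SE 0.113, adjusted p = 4.088e-05). GRL/L had 32.5, 25.8 and 22.9 CPM with vehicle and 34.6, 34.4 and 38.2 CPM with Dex. That rise of 0.40 (SE 0.113, edgeR adjusted p = 0.009961) was lost without Dex replicate 3 (adjusted p = 0.0642) or without vehicle replicate 2 (0.05443) or 3 (0.1072). The changes of 0.30 in GRD/D and 0.18 in GRD+L/D+L did not pass in the model that fits both runs together. That in GRD/D did with no filter on low counts (edgeR adjusted p = 0.0002507), with only the run 1 wild type in the fit (0.01537) and without replicate 1 of the Dex (0.0443) or vehicle (0.02431) libraries, and that in GRD+L/D+L with its libraries fitted alone (0.00686). GRko/ko stood at 73.2 to 82.4 CPM with vehicle and 78.2 to 84.2 CPM with Dex.

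The counts of Cebpb and Cebpd are uncertain where these genes share exon bases with neighbours on the opposite strand. Cebpb shares 312 exon bases, 20.7% of its exon sequence, with Tmem189, and Cebpd shares 562 of its 3746 bases with Spidr. Since the strand setting of the counting is not given in the sources used here, it cannot be told whether reads of these stretches were counted for either gene or left out.

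Cebpd, the partner of Cebpb in the early step, lies on chromosome 16 at 15887286 to 15891031 and gave the widest difference between the runs among those that passed. In the wild type of run 1 it was at 25.8, 23.9 and 21.3 CPM with vehicle and 29.1, 34.0 and 34.4 CPM with Dex. In run 2 it went from 17.1, 19.3 and 24.7 CPM to 70.1, 64.7 and 55.6 CPM. The ranges were separate in both runs, but the log2 change was 0.46 (SE 0.128, edgeR adjusted p = 0.0116) in run 1 and 1.64 (SE 0.111, adjusted p = 1.04e-14) in run 2. The 2 changes differed by 1.19 (SE 0.170, edgeR adjusted p = 4.591e-06), one of 3 such differences among the 10 genes where 7.09% of all genes passed. The run 1 rise was lost when Dex replicate 2 or 3 or vehicle replicate 3 was left out (adjusted p from 0.05206 to 0.07647).

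GRL/L, measured beside the strongly responding wild type, had 23.8, 19.7 and 18.6 CPM of Cebpd with vehicle and 40.4, 49.6 and 53.4 CPM with Dex. That rise of 1.21 (SE 0.174, edgeR adjusted p = 1.893e-06) was 0.43 below that of its wild type, a difference that did not pass (SE 0.158, adjusted p = 0.1916) but did without vehicle replicate 6 of the wild type (-0.59, adjusted p = 0.03842). GRD/D changed by 0.29 and GRD+L/D+L by 0.39, with neither passing, and GRko/ko by -0.10. These mutant values came from the model with a run term, the wild-type values per run from that of 12 groups. The former gives both wild types 1 Dex change, although theirs differed by 1.19, so the calls are not like for like. The rise in GRD+L/D+L passed with no filter on low counts (edgeR adjusted p = 0.0001091), with only the run 1 wild type in the fit (0.02771) and with the GRD+L/D+L libraries fitted alone (0.0001019), and that in GRD/D with no filter (0.01376). Fitted alone, 1507 of 13486 genes passed in GRD+L/D+L, in place of 620 of 15489. The difference of GRko/ko from the wild type, -0.56, passed at an adjusted p of 0.04071 in edgeR and was lost with a replicate block (0.08913) and without any one of 8 libraries: Dex replicates 1 and 2 and vehicle replicates 1 and 3 of GRko/ko, and replicates 2 and 3 of either treatment of the wild type (adjusted p from 0.07198 to 0.1142).

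Pparg, the nuclear receptor that commits cells to the adipocyte fate, did not pass for Dex in any genotype in the model used throughout. In the wild type it was at 3.05, 4.73 and 3.57 CPM with vehicle and 4.61, 4.34 and 5.28 CPM with Dex in run 1, where the groups overlapped. Run 2 had 20.2, 19.3 and 19.3 CPM with vehicle and 20.9, 20.8 and 20 CPM with Dex, with a log2 change of 0.07 (SE 0.0726). In GRD/D the vehicle libraries (6.03, 6.81 and 6.53 CPM) lay above those with Dex (5.88, 4.62 and 4.69 CPM), with a log2 change of -0.36 and an adjusted p of 0.05541 in edgeR. That fall passed with at least 10 counts in every library (0.04986), with only the run 2 wild type in the fit (0.04038) and without replicate 1 of the Dex (0.01913) or vehicle (0.04945) libraries, and the run 1 wild-type rise without vehicle replicate 2 (0.02216). The difference of that change from the wild type of run 1 was -0.69 (SE 0.180, adjusted p = 0.02012), and it was lost with the replicate block (0.06177), with no filter on low counts (0.05597) and without any one of 6 libraries: Dex replicates 2 and 3 and vehicle replicate 2 of GRD/D, and Dex replicate 3 and vehicle replicates 1 and 3 of the wild type (0.05788 to 0.1336).

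**Figure D1:**
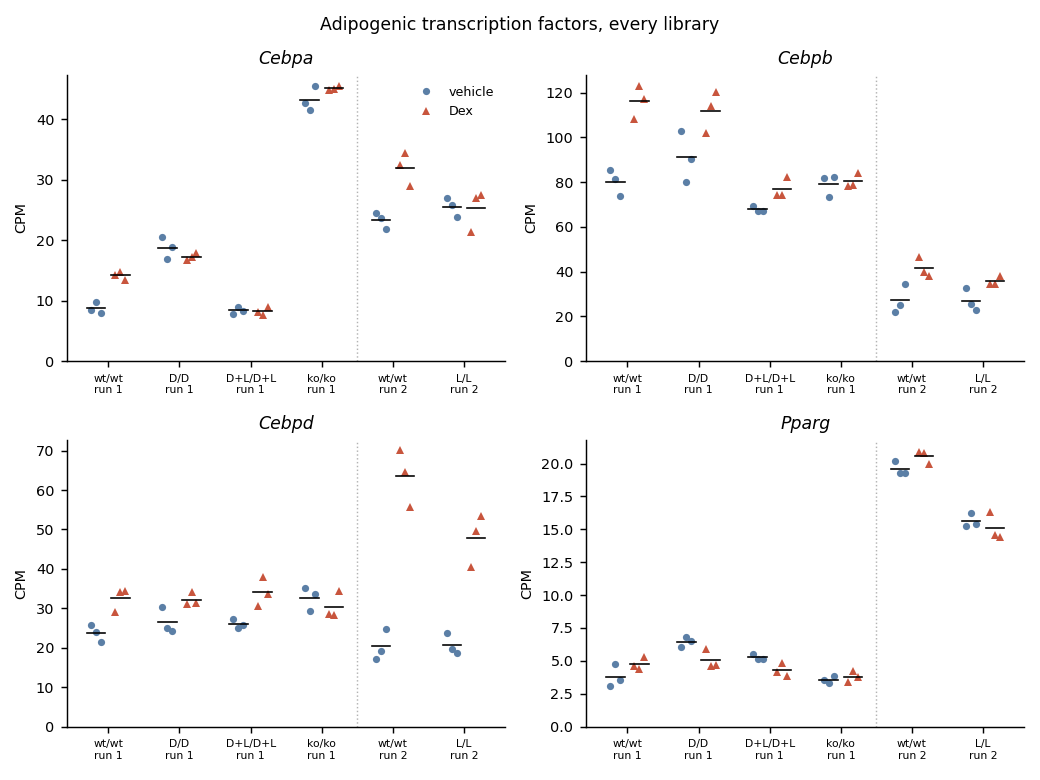
CPM (linear axes from 0) of the 4 factors in each of the 36 libraries, with vehicle as circles, Dex as triangles, bars at the group mean of 3 libraries and a dotted line between run 1 and run 2. Cebpa separates vehicle from Dex in both wild types, between 7.98 and 14.8 CPM in run 1, and is highest in GRko/ko under both treatments.

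Fabp4 was the gene of the set that responded in most genotypes. It lies on chromosome 3 at 10204088 to 10208576 (minus strand). In the wild type of run 1 it went from 3.63, 4.80 and 3.70 CPM with vehicle to 13.5, 14.2 and 16.95 CPM with Dex, and in run 2 from 19.7, 19.1 and 18.2 CPM to 76.2, 61.4 and 61.6 CPM. The fitted changes were 1.88 (SE 0.135, edgeR adjusted p = 1.303e-13) and 1.81 (SE 0.0809), and their difference did not pass (-0.08, SE 0.162, adjusted p = 0.868), although that of the vehicle levels did.

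Fabp4 also rose in 3 of the 4 mutants. GRL/L went from 11.9, 11.04 and 11.3 CPM to 32.5, 35.2 and 34.7 CPM, a log2 change of 1.58 (SE 0.0892, edgeR adjusted p = 5.241e-16) that was 0.22 below its wild type without passing (adjusted p = 0.4599). GRD/D went from 3.75, 5.33 and 3.74 CPM to 7.59, 7.96 and 7.97 CPM, a change of 0.86 (SE 0.143, adjusted p = 4.816e-05). It was the only one of the 10 genes to pass in GRD/D, where 10.1% of all genes did. GRD+L/D+L went from 5.71, 6.20 and 5.72 CPM to 7.77, 8.74 and 8.47 CPM, again without overlap, and the change of 0.50 (SE 0.136, adjusted p = 0.02408) was the only one of the 10 to pass against 4.0% of all genes. Without Dex replicate 2 or 3 or vehicle replicate 1 or 3 of GRD+L/D+L it had adjusted p between 0.08395 and 0.1185. In GRko/ko the vehicle range of 3.71 to 5.31 CPM overlapped the Dex range of 4.37 to 5.57 CPM. Summed over 10 endothelial markers, the run 1 wild type had 204 to 250 CPM with vehicle and 252 to 257 CPM with Dex. That of run 2 had 85.2 to 92.6 and 112 to 133 CPM, and GRL/L 76.2 to 80.1 and 107 to 111 CPM. GRD/D had 229 to 253 and 362 to 367 CPM, and GRD+L/D+L 155 to 156 and 246 to 256 CPM. For GRko/ko these ranges overlapped, at 165 to 190 and 181 to 200 CPM. The part of endothelial cells in the Fabp4 change was not tested.

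The Fabp4 response was smaller than in the run 1 wild type by 1.02 in GRD/D (SE 0.206, edgeR adjusted p = 0.001309), by 1.38 in GRD+L/D+L (SE 0.199, adjusted p = 7.556e-06) and by 1.78 in GRko/ko (SE 0.210, adjusted p = 6.682e-08). The difference between GRD+L/D+L and GRD/D themselves was -0.36 (SE 0.199, adjusted p = 0.5739). In that comparison none of the 10 genes passed, nor did any other gene in edgeR (0.00%), where 1437 genes had an unadjusted p under 0.05, while DESeq2 called 21 genes. With other settings edgeR called 67 (no filter), 28 (only the run 1 wild type in the fit), 6 (only that of run 2) and 7 (only the genotypes compared).

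Lpl, the lipase that frees fatty acids from circulating lipid, fell with Dex in both genotypes of run 2. Its wild-type levels there were 533.3, 546.1 and 597.8 CPM with vehicle and 319.1, 356.0 and 340.6 CPM with Dex, a log2 change of -0.72 (SE 0.0785, edgeR adjusted p = 1.756e-09). GRL/L went from 518.6, 474.8 and 460.2 CPM to 323.3, 369.8 and 377.5 CPM, a change of -0.44 (SE 0.0972, adjusted p = 0.0009107). In the wild type of run 1 the level was far lower, 16.8 to 22.5 CPM with vehicle and 16.0 to 20.6 CPM with Dex, and the groups overlapped, with a change of -0.15 (SE 0.120) that did not pass. The 2 wild-type changes differed by -0.57 (adjusted p = 0.008042), which became -0.45 (adjusted p = 0.0725) without Dex replicate 3 of run 1.

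Car3, Hp and Cfd passed the filter on low counts through run 2. Car3 had between 0 and 5 counts in every run 1 library of GRwt/wt and GRD/D. In run 2 the wild type fell from 32.5, 33.1 and 29.04 CPM to 18.7, 21.5 and 20.8 CPM, a log2 change of -0.63 (SE 0.106, edgeR adjusted p = 1.057e-05). GRL/L fell from 8.96, 8.29 and 9.60 CPM to 4.66, 5.88 and 6.61 CPM, by 0.64 on the log2 scale (adjusted p = 0.0006652). The ranges with and without Dex were separate in both genotypes.

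Hp moved the other way. It rose in the run 2 wild type from 11.6, 12.6 and 14.7 CPM to 20.6, 18.9 and 17.7 CPM, a change of 0.55 (SE 0.116, edgeR adjusted p = 0.0002442), and in GRL/L from 2.54, 2.56 and 3.23 CPM to 4.396, 4.47 and 4.84 CPM, a change of 0.72 (SE 0.173, adjusted p = 0.002305). Run 1 wild-type libraries had only 0 to 8 counts. Cfd had 0 counts in all 24 libraries of run 1. Its run 2 wild-type values of 8.11, 8.53 and 6.50 CPM with vehicle and 7.29, 6.54 and 5.94 CPM with Dex overlapped, and neither that change (-0.23, SE 0.166) nor that of GRL/L passed.

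Plin2, the lipid droplet coat protein of many cell types, was the only marker that was high in every library. It rose slightly in the run 1 wild type, from 325.0, 297.5 and 321.4 CPM to 370.9, 354.9 and 363.0 CPM, by 0.21 (SE 0.0516, edgeR adjusted p = 0.004331), with no overlap. In run 2 the change was -0.10 (SE 0.0523) and did not pass, and the 2 changes differed by -0.31 (adjusted p = 0.005545). The run 1 rise had an adjusted p of 0.05406 without vehicle replicate 2.

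**Figure D2:**
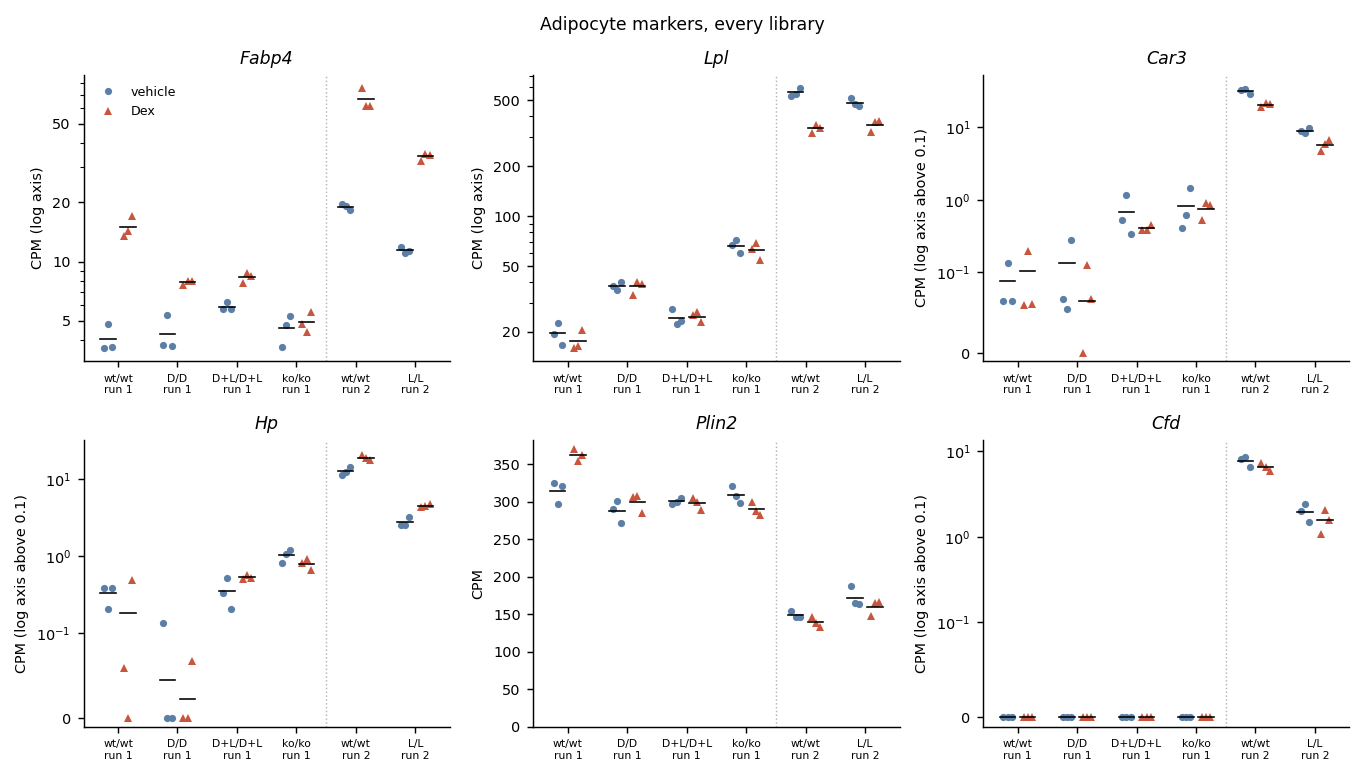
CPM of the 6 markers in each of the 36 libraries, with vehicle as circles, Dex as triangles and bars at the group mean of 3 libraries. Fabp4 and Lpl are on log axes, Car3, Hp and Cfd on axes that are linear below 0.1 CPM and logarithmic above, and Plin2 on a linear axis from 0; Cfd is at 0 in all 24 run 1 libraries.

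Across the mutants, 6 of the 10 genes passed with Dex in GRL/L (4 up and 2 down, against 17.7% of all genes), and these 6 were Cebpb, Cebpd, Fabp4, Lpl, Car3 and Hp. In GRko/ko 0 of 10 passed, as did 0.00% of all genes in edgeR, where 787 genes had an unadjusted p under 0.05 and DESeq2 called 1, and edgeR without the filter on low counts called 99. The Dex changes of GRko/ko were smaller than those of the run 1 wild type for 5 of the 10 genes, where 8.48% of all genes differed in either direction: Cebpa, Cebpb, Cebpd, Fabp4 and Plin2. The difference was -0.51 for Cebpb (edgeR adjusted p = 0.02473) and -0.30 for Plin2 (adjusted p = 0.005682), which against all 6 wild-type cultures was -0.15 (adjusted p = 0.2267). The Cebpb difference was lost without any one of 6 libraries: Dex replicates 1 and 2 and vehicle replicates 1 and 3 of GRko/ko, and Dex replicate 2 and vehicle replicate 3 of the wild type (adjusted p from 0.05443 to 0.07491). For GRD/D the count was 3 of 10 (3.29% of all genes) and for GRD+L/D+L 2 of 10 (3.23%).

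**Figure D3:**
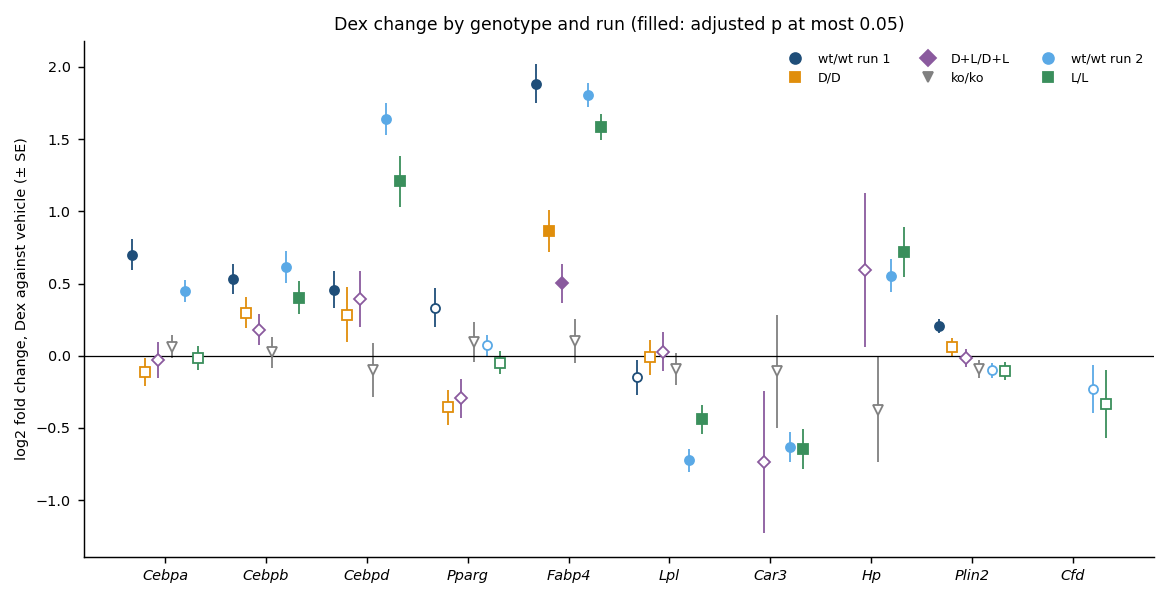
Log2 fold change of Dex against vehicle with its standard error, for each gene and for each genotype and run, filled where the adjusted p was at most 0.05; 8 values with a standard error above 0.6 or too few counts are not drawn (Car3, Hp and Cfd in run 1 groups). Fabp4 is filled in 5 of 6 groups, at 1.88 and 1.81 in the wild types, and Cebpa in the wild types alone.

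Without Dex, the wild-type cultures of the 2 runs were far apart. 9 of the 10 genes differed, all 9 by 2-fold or more, where 72.4% of all genes differed and 22.8% did so by 2-fold. Car3, Hp and Cfd are among the 9 and passed the filter through run 2, so a difference was fixed for them, and nothing is read from the count. Lpl was 4.83 higher in run 2 on the log2 scale (SE 0.102), Pparg 2.38 (SE 0.103), Fabp4 2.23 (SE 0.125), Hp 5.27 (SE 0.254) and Cebpa 1.42 (SE 0.0967). Cfd was at least 38.9-fold higher in run 2 with vehicle and at least 35.5-fold higher with Dex, taking 3 counts per library as the limit for run 1. Car3 went from 1, 2 and 1 counts in run 1 to 920, 908 and 782 counts in run 2. Cebpb and Plin2 were lower in run 2, by 1.56 (SE 0.112) and 1.08 (SE 0.0524) on the log2 scale, and Cebpd did not pass in edgeR (adjusted p = 0.1214), although DESeq2 gave an adjusted p of 0.04588 and edgeR without vehicle replicate 6 of run 2 one of 0.01051.

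Other adipocyte genes went both ways between the runs. Of 32 tested genes of lipid storage and secretion, 15 were higher and 9 lower in run 2, where 72.4% of all genes differed. The summed level of 8 mature adipocyte markers, none of them among the 10 genes, was 3.70 to 8.34 CPM over run 1 and 15.4 to 30.9 CPM over run 2. Adipoq, the fat hormone adiponectin, was at 0 in the 3 vehicle libraries of the run 1 wild type and at 8.46 to 9.21 CPM in those of run 2. Skeletal muscle markers went the other way, with a sum of 375 to 805 CPM in run 1 and 18.4 to 32.6 CPM in run 2. The part of cell composition in the members' levels was not tested.

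Within run 2, GRL/L cultures had lower levels of most of the 6 markers than the wild type before Dex. 6 of the 10 genes differed (1 up and 5 down, against 11.3% of all genes). Hp was lower by 2.22 (SE 0.143, edgeR adjusted p = 1.282e-13), Cfd by 1.97 (SE 0.189), Car3 by 1.82 (SE 0.114), Fabp4 by 0.74 (SE 0.0910) and Pparg by 0.33 (SE 0.0734), all on the log2 scale. Cfd was at 1.99, 2.40 and 1.49 CPM in GRL/L against 8.11, 8.53 and 6.50 CPM in the wild type, with a wide gap between the ranges. Plin2 was higher by 0.20 (adjusted p = 0.006408), a difference lost without vehicle replicate 1 of GRL/L (0.1153). Cebpa, Cebpb, Cebpd and Lpl did not pass, although Lpl did with no filter on low counts (-0.21, edgeR adjusted p = 0.001844). Of the 32 tested genes of lipid storage and secretion, 11 were lower and 5 higher in GRL/L. The mature adipocyte sum was also lower, 15.4 to 17.2 CPM against 29.5 to 30.9 CPM, and the macrophage sum higher, 1220 to 1450 CPM against 653 to 700 CPM. Their part in these differences was not tested.

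Within run 1, Cebpa and Lpl were higher in GRko/ko and GRD/D. With vehicle, Cebpa was at 42.6, 41.6 and 45.5 CPM in GRko/ko and at 20.5, 16.9 and 18.8 CPM in GRD/D, against 7.98 to 9.73 CPM in the wild type, so that the 3 genotypes did not overlap. The log2 differences from the wild type were 2.31 (SE 0.0943, edgeR adjusted p = 1.496e-21) and 1.10 (SE 0.104, adjusted p = 9.878e-10). Lpl was at 67.1, 71.4 and 59.9 CPM in GRko/ko and 37.8, 35.7 and 40.3 CPM in GRD/D, against 16.8 to 22.5 CPM, with differences of 1.76 (SE 0.104) and 0.95 (SE 0.109). GRD+L/D+L had Cebpa at 7.88 to 8.95 CPM, overlapping the wild type, with a difference of -0.05 (SE 0.120), and Lpl at 22.3 to 27.4 CPM.

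The macrophage sum of the same vehicle libraries was at 4250 to 4630 CPM in GRko/ko, 1030 to 1100 CPM in GRD/D, 283 to 505 CPM in the wild type and 44.9 to 56.0 CPM in GRD+L/D+L, with all 20 markers detected in each group. Macrophages express both Cebpa and Lpl. In GRD+L/D+L the macrophage sum was below that of the wild type, while Cebpa was close to it and Lpl was 0.31 higher on the log2 scale, with ranges that overlapped. In run 2 the macrophage sum was 1220 to 1450 CPM in GRL/L against 653 to 700 CPM in the wild type. Cebpa was there at 23.9 to 27.0 against 21.9 to 24.6 CPM, and Lpl at 460.2 to 518.6 against 533.3 to 597.8 CPM. The part of these cells in the levels of Cebpa and Lpl was not tested. With Dex the macrophage sum of the run 1 wild type was 298 to 480 CPM. The part of these cells in the Dex change of Cebpa was not tested.

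**Figure D4:**
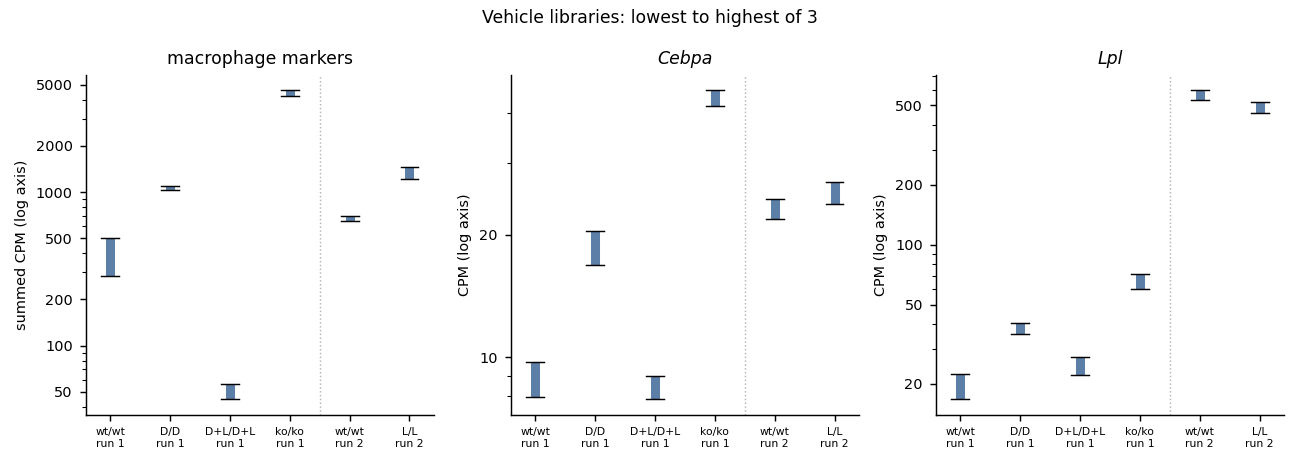
Range over the 3 vehicle libraries of each genotype and run, on log axes, for the summed CPM of 20 macrophage markers and the CPM of Cebpa and Lpl. In run 1 all 3 quantities are highest in GRko/ko and next highest in GRD/D, and Lpl is at 460.2 CPM or more in both groups of run 2. In run 2 the macrophage sum is higher in GRL/L than in the wild type, the Cebpa ranges overlap and the Lpl range is lower.

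In all, 5 of the 10 genes were higher in GRko/ko than in the run 1 wild type with vehicle and none was lower, where 45.7% of all genes differed. Besides Cebpa and Lpl they were Cebpd (0.46, SE 0.127), Hp (1.62, SE 0.440, from 3 to 6 counts in the wild type and 14 to 19 in GRko/ko) and Car3 (7, 11 and 23 counts against 1, 2 and 1). In GRD/D 4 of 10 passed (3 up and 1 down, against 9.55%). Pparg was higher there by 0.78 (SE 0.126), and Hp lower, with 2, 0 and 0 counts against 6, 3 and 6, a call lost against all 6 wild-type cultures (adjusted p = 0.1053) and without vehicle replicate 2 or 3 of GRD/D or 1 or 3 of the wild type. In GRD+L/D+L 4 of 10 were higher, where 29.9% of all genes differed: Pparg by 0.48 (SE 0.134), Fabp4 by 0.54 (SE 0.161), Lpl by 0.31 (SE 0.116) and Car3, with 8, 18 and 5 counts. Without vehicle replicate 1 of the wild type, only 1 of these 4 still passed, and Lpl was also lost without vehicle replicate 1 or 3 of GRD+L/D+L or 3 of the wild type, and was 0.12 (adjusted p = 0.5007) against all 6 wild-type cultures.

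**Figure D5:**
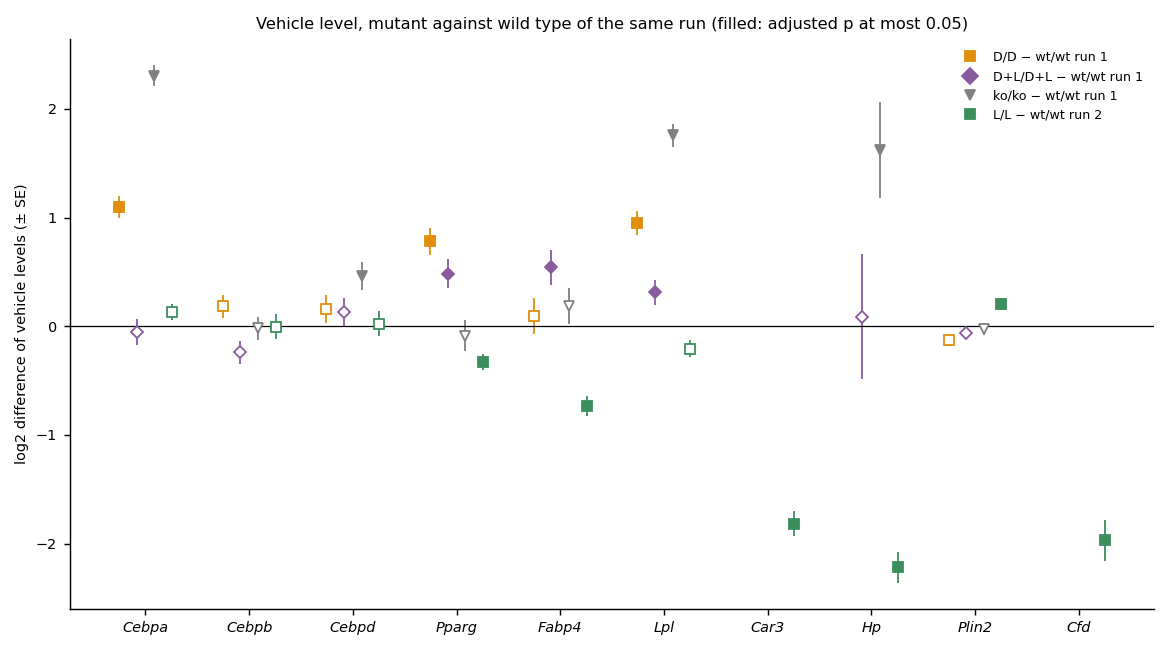
Log2 difference of the vehicle level from the wild type of the same run, with its standard error, filled where the adjusted p was at most 0.05; 7 values with a standard error above 0.6 or too few counts are not drawn, 3 of which passed (Hp in GRD/D and Car3 in GRD+L/D+L and GRko/ko). Cebpa stands at 2.31 in GRko/ko, and Car3, Hp and Cfd lie near -2 in GRL/L.

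Between genes, levels were compared per kilobase of exon of protein-coding transcripts. In the wild type with vehicle, Plin2 ranked first in run 1 with 167.0 CPM per kilobase (SD 7.92, n = 3) and Cebpb next with 53.3 (SD 3.92). In run 2 Lpl led with 136.0 (SD 8.30), followed by Plin2 with 79.0 (SD 2.11) and Fabp4 with 21.2 (SD 0.830). The middle ranks depend on the exon lengths used: with the exons of all annotated transcripts, Fabp4 in run 2 had 4.23 CPM per kilobase and rank 10 in place of 3.

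Genes of the same program that are not among the 10 were counted in 4 lists. Of 25 tested adipogenic transcription factors and coactivators, 7 rose and 4 fell with Dex in the wild type of run 1 and 8 rose and 6 fell in run 2, with a median log2 change of 0.03 and 0.00. As above, 13.9% of all genes passed in run 1 and 31.6% in run 2, the shares against which these lists stand. Klf15, a Krüppel-like factor that promotes adipogenesis, rose by 1.70 (SE 0.201) and 2.97 (SE 0.114), and Klf9 by 1.05 (SE 0.0540) and 1.24 (SE 0.0502). Ebf1, an early B-cell factor active in preadipocytes, rose by 0.86 and 0.39, Nfia by 0.43 and 1.32, and Egr2, an immediate early factor upstream of Cebpb, fell by 0.96 and 0.98. In GRL/L 5 rose and 5 fell (17.7% of all genes), in GRD/D 1 and 2 (10.1%), in GRD+L/D+L 1 (Klf9, 0.42, SE 0.0595) and 0 (4.0%), and in GRko/ko 0.

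Of 25 tested restrainers of adipogenesis, 3 rose and 3 fell in run 1 (13.9% of all genes) and 5 rose and 8 fell in run 2 (31.6%). In GRL/L 3 rose and 12 fell (17.7%), in GRD/D and in GRD+L/D+L 2 rose and 2 fell (10.1% and 4.0%), and in GRko/ko none passed. Klf6, whose place among restrainers is doubtful, is in each of these counts of genes that rose. In the wild types Klf6 rose by 0.45 and 0.50 and Zfp521 by 0.38 and 0.35. Wwtr1, the YAP partner TAZ, fell by 0.28 and 0.44 and Ddit3 by 0.21 and 0.30. Trib2, an inhibitor of C/EBP proteins, fell by 0.31 and 0.25.

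Of 32 tested genes of lipid storage and secretion, 2 rose and 1 fell in run 1, where 4 could not be estimated, and 8 rose and 4 fell in run 2, beside 13.9% and 31.6% of all genes. In GRL/L 5 rose and 2 fell (17.7% of all genes), in GRD/D 3 and 1 (10.1%), in GRD+L/D+L 1 and 0 (4.0%), and in GRko/ko none passed (0.00%). Another 4 could not be estimated in GRD/D, 3 in GRD+L/D+L and 3 in GRko/ko. Angptl4, an inhibitor of lipoprotein lipase, fell by 1.57 (SE 0.146) and 1.76 (SE 0.161), also in GRL/L by 1.46 and in GRD/D by 0.73. Plin1, the lipid droplet coat of fat cells, fell by 2.28 (SE 0.354) in run 2. The lipase Mgll rose by 0.18 and 0.52, Fabp5 by 0.26 and 0.49 and Pnpla2 by 0.70 in run 2 (0.04 in run 1, not passing).

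Of 14 stromal and preadipocyte markers, 4 rose and 1 fell in run 1 (13.9% of all genes), where 1 could not be estimated, and 5 rose and 2 fell in run 2 (31.6%). In GRL/L 4 rose and 2 fell (17.7%), in GRD/D 2 rose (10.1%) and 1 could not be estimated, in GRD+L/D+L 2 fell (4.0%), and in GRko/ko none passed (0.00%). Cd24a rose by 0.32 and 1.40, Gsn by 0.29 and 0.69 and F3 by 0.45 and 0.33, while Pdgfrb fell by 0.20 and 0.62 and Icam1 by 0.47 in run 2 (-0.33 in run 1, not passing).

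The genes whose group means over the 12 groups followed each factor most closely were described by Pearson's r of log2 CPM. They were Rab3il1 (0.969), Pycard (0.969) and Rcsd1 (0.965) for Cebpa, Mfhas1 (0.988), Cactin (0.986) and Fscn1 (0.986) for Cebpb, Errfi1 (0.943) and Tmem38b (0.930) for Cebpd, and Mir703 (0.991), Rpl30 (0.989) and Psma4 (0.989) for Pparg. The 12 points share the 2 runs, which differ in most genes.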

How the data were processed

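RNA-seq counts of 36 MEF libraries were used. The authors mapped TruSeq reads from a NextSeq to mm10 with HISAT2 2.1.0, kept unique reads and obtained counts per gene from featureCounts 2.0.0. The deposited counts are raw whole numbers. Annotation and strand setting are not given in the sources used here. All columns were used, and the 10 nM experiment was not analysed here.

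Groups came from the sample labels. Counts were scaled by TMM and tested with edgeR 4.0.16 (limma 3.58.1, R 4.3.3) by the quasi-likelihood test with Benjamini-Hochberg adjustment over the 15489 genes kept by filterByExpr. Dex changes per genotype, and GRD+L/D+L against GRD/D, came from a model of 10 genotype and treatment combinations plus run; values per wild-type run, differences from the same-run wild type and vehicle comparisons came from a model of 12 groups. Standard errors are the log2 change divided by the root of F and are approximate. Log2 CPM used a prior count of 2. A gene with at most 3 counts in every library compared was not estimated. Scripts were tested on simulated data. Alternatives were DESeq2 1.42.0, its size factors, other filters (none, or at least 10 counts), other wild-type sets, a replicate block and leaving out each library.

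The 10 genes were fixed by name, and they and the 4 lists were chosen with earlier results of these data known. From each list the 5 genes with the smallest adjusted p in GRwt/wt were named, and for each factor the 3 most similar genes whose mean count was 50 or more; 1 of them is not reported here. Symbols, positions and lengths came from GENCODE M21 (GRCm38), which matched 55141 of 55487 identifiers. The exon length was changed from all annotated transcripts to protein-coding transcripts of the basic set after the first ranks had been seen. Of 9 promoter motifs, 4 were added after the sequences had been read.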

Additional observations from a re-analysis of the deposited data

Results flagged for a closer look

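A Dex response that differed between groups of samples, by a test of the difference itself, drew a closer look. Between the wild types of the 2 runs (run 2 minus run 1) this held for Cebpd (1.19), Lpl (-0.57) and Plin2 (-0.31). Between mutant and same-run wild type it held for Cebpa (-0.81), Pparg (-0.69) and Fabp4 (-1.02) in GRD/D, for Cebpa (-0.47) in GRL/L, for Cebpa (-0.73) and Fabp4 (-1.38) in GRD+L/D+L, and for Cebpa (-0.64), Cebpb (-0.51), Cebpd (-0.56), Fabp4 (-1.78) and Plin2 (-0.30) in GRko/ko, all as differences of log2 change in edgeR. No test for a single outlying sample was run in groups of 3 libraries.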

How the results depend on the processing

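Over the 10 genes and all comparisons, 947 of 981 values under another setting and 1341 of 1398 with 1 library left out kept direction and side of the threshold; 83 further sign changes concerned values that passed under neither setting. Only Car3 (0.21) and Hp (-0.81) in GRwt/wt changed sign after passing, both with the wild type of run 1 alone, where their counts are few, and Hp did not pass with DESeq2 (adjusted p = 0.1161). The count for Dex in GRD/D was 3 without the filter, 2 with at least 10 counts in every library and 2 with only the run 1 or only the run 2 wild type, in place of 1. In GRD+L/D+L it was 2 without the filter, 2 with the run 1 wild type and 3 fitted alone. Against all 6 wild-type cultures, 5 responses differed in GRD/D in place of 3 and 4 in GRD+L/D+L in place of 2. Without the filter 3 differed in GRL/L in place of 1. With at least 10 counts, where fewer of the genes are tested, 3 vehicle levels differed in GRL/L and 3 in GRko/ko. The cause of the other moves was not tested.

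With 1 library left out, the counts ranged from 1 to 3 (GRD/D, Dex; 3 at most without replicate 1 of either treatment), 0 to 1 (GRD+L/D+L, Dex), 0 to 2 (difference of GRL/L), 3 to 5 (difference of GRko/ko) and 1 to 4 (GRD+L/D+L, vehicle). Whether the replicate numbers pair the libraries could not be settled. Over 18 pairs the correlation of deviations was weak, -0.0787 to 0.116, and 1 was above 0.1. Of 18 libraries 9 correlated best with their own number, among them all of GRD+L/D+L and GRko/ko. The replicate block gave 4849 genes in place of 5207 for Dex in GRwt/wt and lost 2 calls, Pparg in GRD/D (0.06177) and Cebpd in GRko/ko (0.08913), both as differences from the wild type.

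Car3, Hp and Cfd had counts at or near 0 in much of run 1, so their changes with Dex rest on few counts there. Without Dex replicate 3 of the run 1 wild type, the change of Hp went from -0.81 to -3.18 and passed (edgeR adjusted p = 0.02484).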
